A study of Mus musculus with 30 samples.

Results

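Salidroside, tyrosol and hydroxytyrosol are phenylethanoids, plant phenols found in Rhodiola and olive, and the mice given any of the 3 were pooled here as treated mice. These were 18 of the 30 mice whose stool bacteria were sequenced, namely every mouse whose label gave one of the 3 compounds as its group, and they were compared with the 6 mice of the model group. All mice were female C57BL/6 mice by the labels (C57BL/6J in the study's methods). The age of 6 weeks in the labels is that at purchase in the methods, so the mice were older when stool was taken. Model and treated mice alike ate a high-fructose diet (HFru) of 60% fructose, and were gavaged daily with saline in the model group, or with a compound. The daily dose was 50 mg/kg for salidroside, 23 mg/kg for tyrosol and 26 mg/kg for hydroxytyrosol, which the study set to be equal in moles. The 6 control mice ate a normal diet with saline and serve as a reference. Feeding lasted 8 weeks in the methods and 12 weeks in the figure legends. A mouse is named by its group and its replicate number. The labels give no cage and no sequencing batch.

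Tyrosol is a simple phenol with an ethyl alcohol side chain, salidroside is the same molecule with a glucose attached, and hydroxytyrosol is tyrosol with an additional hydroxyl group on its ring. Gut bacteria can remove the glucose of such glycosides and convert phenols that reach the large intestine. The healthy mouse colon is mostly held by strict anaerobes of the Clostridiales and Bacteroidales, with smaller numbers of Coriobacteriaceae, sulphate reducers and lactic acid bacteria. Aerobic genera of soil, water and surfaces are usually scarce there. Sequencing of the 16S rRNA gene gives each taxon's share of the reads of a mouse and not the number of its cells, so a larger share of one taxon lowers the shares of the others.

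The count table held 43979 to 106609 counts per mouse in the treated mice (median 89484.5), 87731 to 104427 in the model mice (median 98991) and 41862 to 83876 in the control mice. The model mice were thus not the shallower ones, and a count of 0 in a model mouse allowed a share of up to 0.00287% to 0.00342%, which covers counting error only. Rows of the table are amplicon sequence variants (ASVs), each with a taxon name, and 88.1% of the counts of the treated mice carried the name of a genus.

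In the treated mice 4 genera rose and 4 fell, and each of these 8 went the same way in the salidroside, tyrosol and hydroxytyrosol groups. The genera that rose were Collinsella, Christensenella, Odoribacter and Subdoligranulum, which are strict anaerobes of the gut. Those that fell were Stenotrophomonas, Sphingobacterium, Ochrobactrum and sequences of the Pseudomonadaceae with no genus name, all aerobes met in soil and water. They were the genera with an adjusted p under 0.05 in edgeR's quasi-likelihood test among 112 taxa at genus level that reached 10 counts in 6 or more of the 24 mice, so that 7.14% were called, 3.57% higher and 3.57% lower. At an unadjusted p under 0.05 there were 21. Of all 112, 56.2% had the same sign in the 3 compounds whatever their p, and since the 3 groups share the same 6 model mice, a shared sign is no independent repeat.

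Collinsella, an anaerobic member of the Coriobacteriaceae that modifies bile acids, gave the clearest difference. It made up 0.0523% to 9.40% of the counts in the treated mice (median 2.50%) and was found in 18 of 18. In the model group 5 of 6 mice had 0 counts and model 6 had 6 counts, a share of 0.00598%. No treated mouse was as low as the highest model mouse, which held for 0.893% of the genera tested, that is for Collinsella alone. The fitted log2 fold change was 10.64 ± 1.69 (SE, adjusted p = 7.12e-05), and the mean share was 2800.1 times that of the model mice, a ratio that rests on the 6 counts of model 6. The medians were 1.88% with salidroside, 2.75% with tyrosol and 2.06% with hydroxytyrosol, and the log2 fold changes of 10.65, 10.82 and 10.44 each passed the test on their own. The salidroside mice were the most spread, from 0.0523% to 9.40%, against 0.891% to 6.51% with tyrosol and 0.512% to 5.44% with hydroxytyrosol. Control mice had almost none of it, with 3 counts in control 6 and 0 in the other 5, so the treated mice stood apart from both diets without a compound. It passed the test in all 24 fits that left out one mouse and under all 14 other settings. Its log2 fold change ranged from 10.15 to 14.20 over the fits with a mouse left out.

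**Figure D1:**
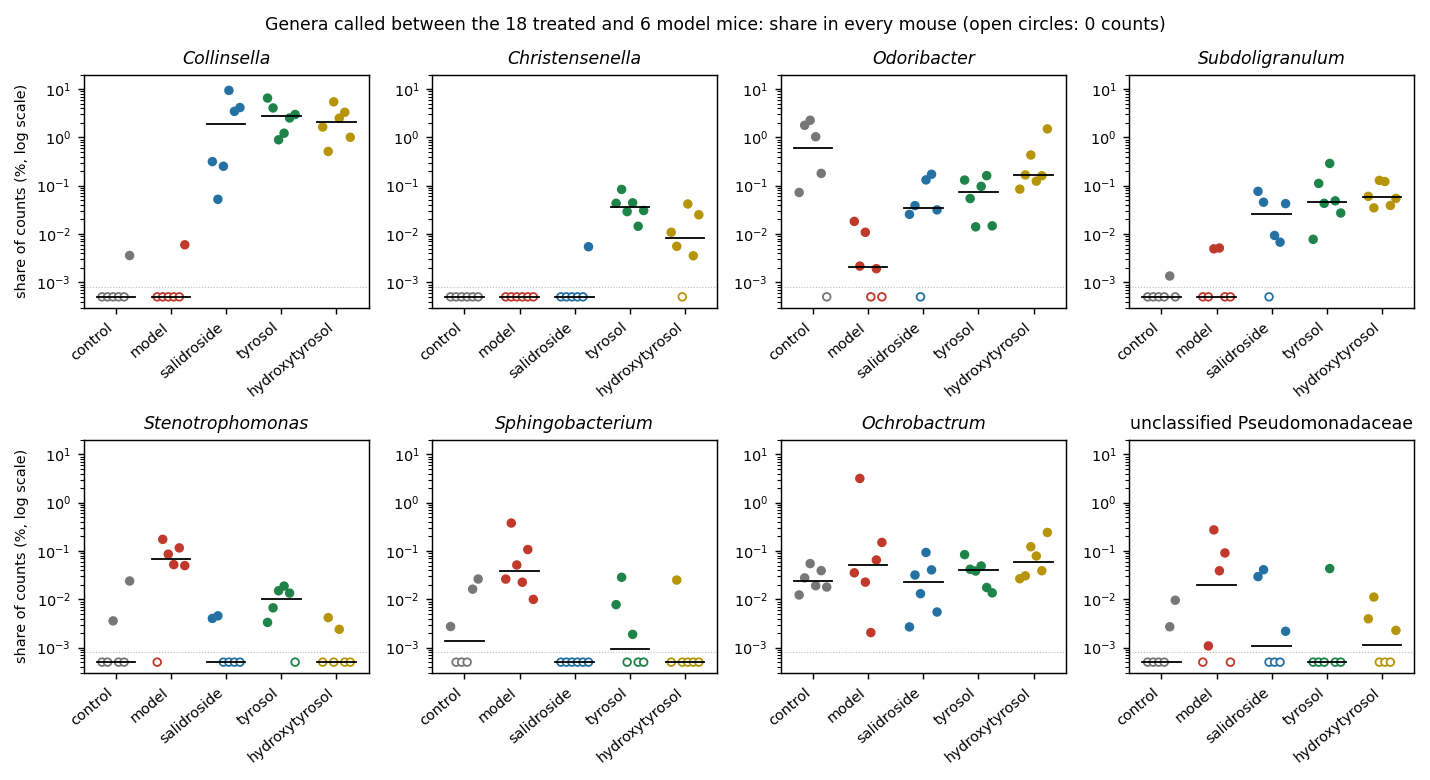
Share of all counts in percent on a log axis for the 8 genera called between treated and model mice, with a point for each of the 6 mice of each group, open circles below the dotted line for 0 counts and a black line at the group median. Collinsella lay at 0.0523% or more in all 18 treated mice and at or under 0.00598% in all model and control mice, whereas Stenotrophomonas and Sphingobacterium of the lower row were at 0.0285% or less in the treated mice. Ochrobactrum overlapped between the groups apart from 1 model mouse at 3.17%.

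Subdoligranulum, a butyrate-producing member of the Ruminococcaceae, was present in 17 of 18 treated mice, at 0% to 0.289% (median 0.0443%). It was found in 2 of 6 model mice, with at most 5 counts or 0.00512%, and in 1 control mouse with 1 count. The fitted log2 fold change was 4.22 ± 1.31 (SE, adjusted p = 0.0446), and the medians were 0.0259% with salidroside, 0.0459% with tyrosol and 0.0574% with hydroxytyrosol. Of the 108 pairs of a treated and a model mouse, the treated mouse was higher in 102. The call was lost without model 2 (adjusted p = 0.0801) or without model 5 (adjusted p = 0.0758).

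Odoribacter, a genus of the Bacteroidales that makes short-chain fatty acids, was the one riser that was also abundant on the normal diet. It held 0% to 2.26% in the control mice (median 0.605%), 0% to 0.0182% in the model mice (median 0.00204%) and 0% to 1.5% in the treated mice (median 0.111%). Treated mice therefore lay between the model and the control mice, higher than model with a log2 fold change of 4.62 ± 1.38 (SE, adjusted p = 0.0421) and lower than control with a log2 fold change of -2.88 (adjusted p = 0.0149). Hydroxytyrosol had the highest median, 0.164%, against 0.0755% with tyrosol and 0.0351% with salidroside, and it was the one compound whose own comparison passed (log2 fold change 5.79, adjusted p = 0.0118). The pooled call was lost without model 2 (adjusted p = 0.0941), model 4 (0.0799) or model 5 (0.0592).

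Christensenella, a strictly anaerobic fermenter, had 0 counts in all 6 model and all 6 control mice and was counted in 12 of 18 treated mice. It was uneven across the compounds. All 6 tyrosol mice had it, at 0.0145% to 0.0837% (median 0.0369%), and 5 of 6 hydroxytyrosol mice, at up to 0.0418% (median 0.0082%), but among the salidroside mice it appeared in salidroside 6 alone, with 5 counts. Taking a count of 0 as 3 counts in each model mouse, the mean share of the treated mice was at least 6.06-fold higher than that of the model mice, and at least 4.82-fold higher without the highest treated mouse (adjusted p = 0.0257 in the pooled test). With 0 counts in every model mouse, the genus entered this test through the treated mice alone. By ranks it did not pass (exact permutation, adjusted p = 0.118). Tyrosol and hydroxytyrosol passed on their own (adjusted p = 0.00737 and 0.0118) and salidroside did not (adjusted p = 0.280), so the shared direction of this genus rests on a single salidroside mouse.

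Among the genera that fell, Stenotrophomonas, a Gram-negative aerobe of water and soil, was counted in 5 of 6 model mice at up to 0.174% (median 0.0691%). In the treated mice it was counted in 9 of 18, at most 0.0188%, and the mean share was 19.8 times higher in the model mice. The fitted log2 fold change was -4.78 ± 1.04 (SE, adjusted p = 0.00421). Tyrosol mice kept the most, with a median of 0.0100%, while the median was 0% with salidroside and with hydroxytyrosol, the 2 compounds that passed on their own (adjusted p = 0.0306 and 0.0118).

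Sphingobacterium, an environmental genus of the Bacteroidetes, was counted in all 6 model mice, from 0.00996% to 0.379% (median 0.0388%). It was counted in 4 of 18 treated mice, with a highest share of 0.0285%, and the groups overlapped in few mice, since the treated mouse was higher in 5 of 108 pairs. No salidroside mouse had a single count, so the model mean was at least 24.6-fold higher than the salidroside mean with 3 counts set for each 0 (adjusted p = 0.0168), or at least 10.7-fold without model 2. The pooled log2 fold change was -4.99 ± 1.16 (SE, adjusted p = 0.00638). The control mice were as low as the treated mice, with 0% to 0.0263%.

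The other two calls were less firm. Ochrobactrum held 0.00205% to 3.17% in the model mice (median 0.0502%) and 0.00268% to 0.242% in the treated mice (median 0.0387%). Model 2 alone held the 3.17%, and the log2 fold change of -3.07 (adjusted p = 0.0198) became -0.39 (adjusted p = 0.866) without it. The hydroxytyrosol mice had a median of 0.0589% and a mean of 0.09%, against a mean of 0.0551% in the other 5 model mice, so the shared direction of this genus rests on model 2. Treated mice were higher in 47 of 108 pairs. The unclassified Pseudomonadaceae were counted in 4 of 6 model mice at up to 0.273% and in 7 of 18 treated mice at up to 0.0432% (log2 fold change -4.26, adjusted p = 0.0446). They had enough counts for the test in 18 of the 24 fits that left out a mouse and passed in 3 of these.

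A rank-based exact permutation test of each genus, added after the first results, passed Collinsella (adjusted p = 0.00166), Subdoligranulum (0.00832), Odoribacter (0.0179) and Sphingobacterium (0.00999) and no other genus. Stenotrophomonas had an adjusted p of 0.0672 and Christensenella of 0.118 in it.

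**Figure D2:**
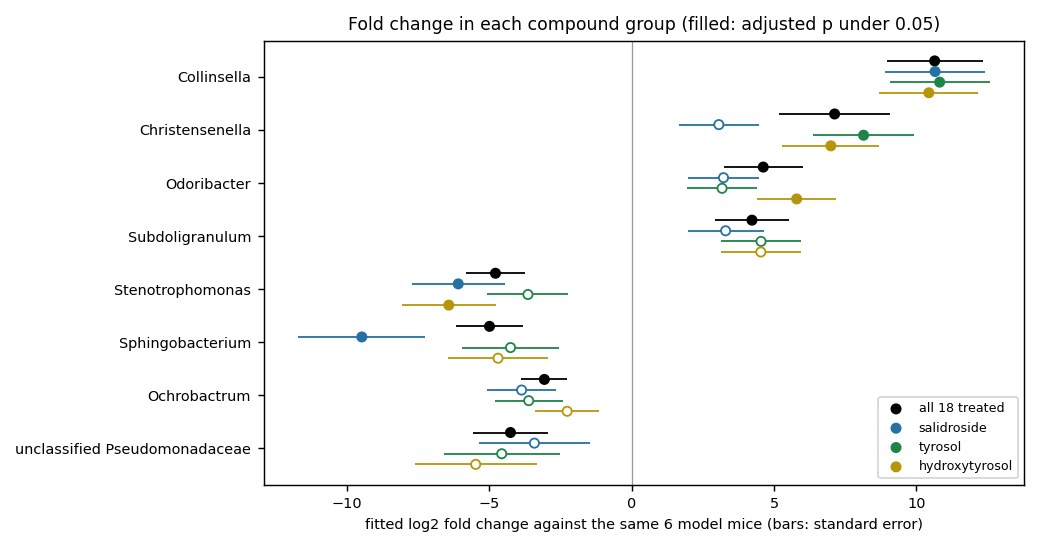
Fitted log2 fold change of the 8 called genera (horizontal axis) for all 18 treated mice and for each compound's 6 mice, all against the same 6 model mice, with bars of 1 standard error and filled points for an adjusted p under 0.05. The 3 compounds lay on the same side of 0 for each genus, and Collinsella was filled in all, from 10.44 to 10.82. The value of Sphingobacterium with salidroside, and those of Christensenella, are against or from groups at 0 counts and depend on the fit's prior count.

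Taken one at a time, the compounds gave 2 to 5 calls among genera. Salidroside passed for 3 genera (2.68% of 112), namely Collinsella up and Stenotrophomonas and Sphingobacterium down. Tyrosol passed for 2 (1.79%), Collinsella and Christensenella. Hydroxytyrosol passed for 5 (4.46%), namely Collinsella, Christensenella, Odoribacter and Stenotrophomonas, and Atopostipes, which was not called in the pooled test (adjusted p = 0.0698). Atopostipes, a relative of the lactic acid bacteria, was counted in 5 of 6 hydroxytyrosol mice at 0% to 8.15% (median 0.0256%), in 3 of the other 12 treated mice at up to 0.0207% and in 1 model mouse with 2 counts. Its mean with hydroxytyrosol was 1.5%, far above its median. Without model 6 the counts of called genera were 6, 5 and 12 for salidroside, tyrosol and hydroxytyrosol. They were 5 for salidroside without salidroside 2, 4 for tyrosol without tyrosol 5, tyrosol 6 or hydroxytyrosol 4, and 3 and 12 for hydroxytyrosol without hydroxytyrosol 1 and hydroxytyrosol 2.

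Between the compounds themselves, at doses equal in moles, 0 of 336 tests of genera in the 3 pairs passed (0% called in edgeR, all 336 adjusted together). At an unadjusted p under 0.05 there were 13 genera between salidroside and tyrosol, 18 between hydroxytyrosol and tyrosol and 14 between salidroside and hydroxytyrosol, and DESeq2 called 16 in all. For Collinsella, with the glucose against without it (salidroside minus tyrosol) the log2 difference was -0.16 (95% interval -2.52 to 2.20), and with the additional hydroxyl against without it (hydroxytyrosol minus tyrosol) for the same genus it was -0.38 (95% interval -2.74 to 1.98). For Christensenella salidroside minus tyrosol was -5.08 (95% interval -8.24 to -1.92), an interval that leaves out 0, with an adjusted p of 0.141. For Odoribacter hydroxytyrosol minus tyrosol was 2.62 (95% interval 0.16 to 5.08, adjusted p = 0.342). For Subdoligranulum hydroxytyrosol minus tyrosol was -0.01 (95% interval -2.45 to 2.44). Most of these intervals span several-fold differences in both directions, so the compounds were not shown to act alike.

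The ASVs behind these genera were then tested singly. Of 421 ASVs that reached 10 counts in 6 or more of these mice, 51 passed the pooled test (12.1%), 49 higher and 2 lower, and 36 of them went the same way in the 3 compounds (8.55%), 34 higher and 2 lower. The filter takes in an ASV absent from the model mice through 6 of 18 treated mice, but one absent from the treated mice only where all 6 model mice reach 10 counts, so the split into higher and lower is shaped by the filter and nothing is read from it. Of the 34 that rose, 31 had 0 counts in every model mouse, as did 46 of all 421 tested, and such ASVs entered the test through the treated mice alone. They were counted in 6 to 18 of the 18 treated mice. The ASVs that rose included 4 of 15 tested of Oscillospira, 3 of 3 of Odoribacter, 3 of 13 of the Enterococcaceae with no genus name, 2 of 5 each of Helicobacter, Bacteroides and Parabacteroides, 2 of 4 of Desulfovibrio and 2 of 3 of the Mogibacteriaceae. Without model 2, 3, 4, 5 or 6 the count of 36 fell to 7, 12, 11, 8 and 11, and without model 1 it was 37. The ranks passed 15 ASVs, all higher in treated mice, of which 12 were among the 36.

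ASVs were also tested for each compound alone. Salidroside called 42 of the 421 ASVs (9.98%), 37 higher and 5 lower, and tyrosol 45 (10.7%), 41 higher and 4 lower. Hydroxytyrosol called 193 (45.8%), 47 higher and 146 lower, so 34.7% of all tested ASVs were called lower in this group. The median log2 fold change over all 421 was -1.84 with hydroxytyrosol, against 0.10 with salidroside and 0.27 with tyrosol. Of the 146, 139 had 0 counts in all 6 hydroxytyrosol mice, as did 152 of all 421 tested, and such ASVs entered the test through mice of the other groups. Among the 146 were 83 of the 139 tested ASVs of Acinetobacter, the aerobe that led most model mice, and, at shares nearer to that over all ASVs, 6 of 14 of Lactobacillus and 5 of 14 of Enterococcus. As a genus Acinetobacter was not called with hydroxytyrosol (log2 fold change -2.90, edgeR adjusted p = 0.261). Together the 146 held 2.07% to 20.2% of the counts in model mice (median 16.3%) and 0% to 0.211% in hydroxytyrosol mice. They were picked for being lower in hydroxytyrosol than in model mice, so the difference between these sums follows from the choice. The salidroside and tyrosol mice did not enter the contrast of hydroxytyrosol with model but took part in the filter and the fit. They are thus no independent reference. The 146 held 0.429% to 13.3% in the salidroside mice (median 6.24%) and 2.92% to 13.2% in the tyrosol mice (median 7.82%). The difference between compounds was not tested for ASVs. Scaling by library size alone gave 47 higher and 145 lower, and TMM with singleton pairing 48 higher and 141 lower. The split moved where the test was changed along with the scaling. DESeq2 gave 54 higher and 112 lower, and centred log-ratios with limma 54 higher and 41 lower. When a mouse was left out hydroxytyrosol had 161 to 239 calls. Salidroside fell to 24, 27, 24, 21 and 20 calls without model 2, 3, 4, 5 and 6, and tyrosol to 28 without model 2, 3 or 5 and to 29 without tyrosol 2.

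**Figure D3:**
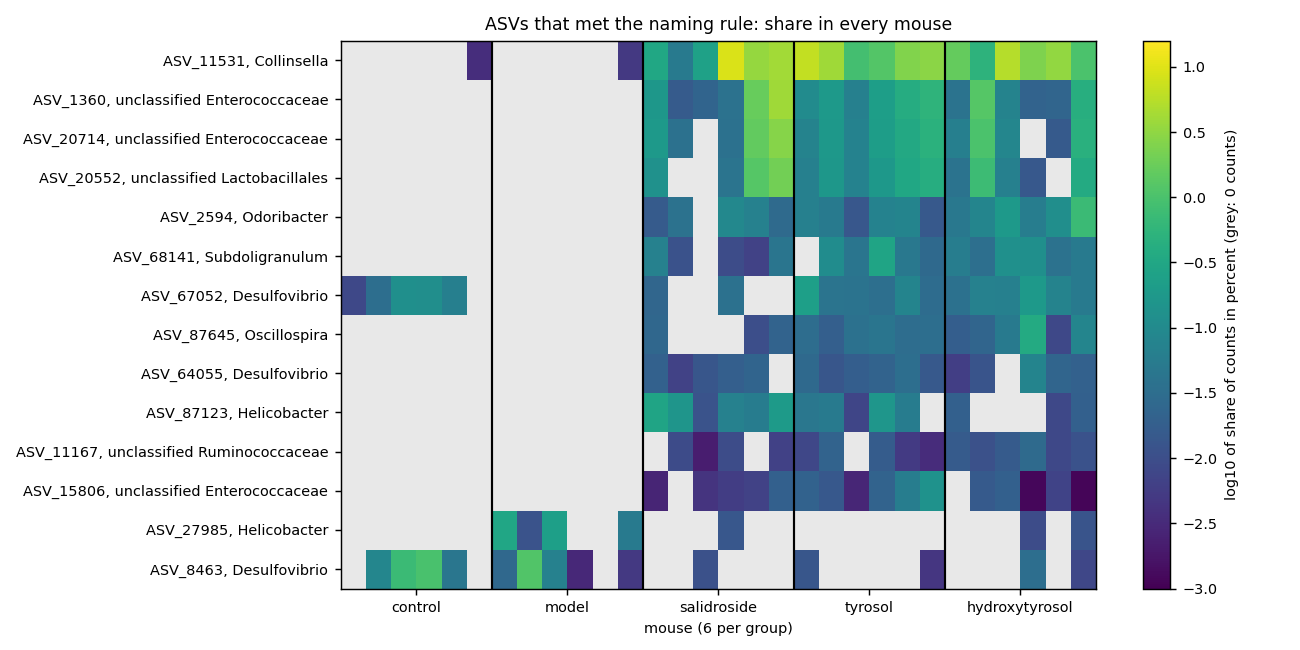
Share of counts in each of the 30 mice (columns, 6 per group) for the 14 ASVs that met the naming rule (rows), as log10 of the percent, with grey for 0 counts. The upper 12 were absent from all 6 model mice apart from 5 counts of the Collinsella ASV in model 6, and the lower 2 were counted in most model mice and few treated mice.

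Collinsella was in effect a single sequence. ASV_11531, named Collinsella stercoris, gave 45790 of the 46102 Collinsella counts of the treated mice and was counted in 18 of 18, with 5 counts in the model group and 3 in the control group. It was the same sequence in all 3 compounds, with 15338 counts over the salidroside mice, 17303 over the tyrosol mice and 13149 over the hydroxytyrosol mice. Collinsella was also most of its phylum in these mice. It made up 18.7% to 98.3% of the Actinobacteria counts of a treated mouse (median 80.7%), and Actinobacteria without it held a median of 0.356% in treated, 1.15% in model and 1.35% in control mice. By compound that median was 1.55% with tyrosol, 0.335% with salidroside and 0.274% with hydroxytyrosol, so the tyrosol mice did not share the lower value.

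Odoribacter consisted of other sequences in treated than in control mice. Of its counts in treated mice, 97.1% lay in ASVs with 0 counts in every model mouse and 96.5% in ASVs with 0 counts in every control mouse. Of its counts in control mice, 95.1% lay in ASVs that no treated mouse had. The leading control sequence, ASV_19634, had 3187 counts in 5 control mice, 9 in 1 model mouse and 0 in the 18 treated mice. The leading treated sequence, ASV_2594, had 0 counts in the control and the model mice and was counted in 17 of 18 treated mice, at 0% to 0.721% (median 0.0643%). Taking 0 as 3 counts, its mean was at least 31.6-fold higher than in the model mice (adjusted p = 0.011), and at least 19.7-fold without the highest mouse. It passed in all 24 fits that left out a mouse, but it entered the test through the treated mice alone. The genus thus lay between model and control in share, while its sequences were largely those of neither.

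The most abundant of the named ASVs absent from model mice were 3 of the lactic acid bacteria. ASV_1360 and ASV_20714, both Enterococcaceae with no genus name, and ASV_20552, named to the order Lactobacillales alone, had 0 counts in all 12 model and control mice. All 3 thus entered the test through the treated mice alone. ASV_1360 was counted in 18 of 18 treated mice, at 0.0159% to 3.93% (median 0.138%), a mean at least 165-fold higher than in the model mice (adjusted p = 0.00413), or at least 100.3-fold without the highest mouse. ASV_20714 was counted in 16 and ASV_20552 in 15 of the 18. The 3 rose and fell together from mouse to mouse. In the 12 treated mice with at least 50 counts of ASV_1360, there were 0.685 to 1.12 counts of ASV_20714 for each of its counts and 0.516 to 1.11 of ASV_20552, so the 3 are not independent of each other. ASV_81202 and ASV_43459 of the same family had 240 and 68 counts in the model group against 13973 and 6820 in the treated mice. Enterococcus itself, a facultative anaerobe, had its leading sequence, ASV_44518, at 18272 counts in the 6 model mice and 13917 in the 18 treated mice. As whole taxa, neither the unclassified Enterococcaceae (log2 fold change 2.70, adjusted p = 0.176) nor Enterococcus (-1.20, adjusted p = 0.503) was called.

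In 2 genera ASVs moved in opposite directions while the genus did not pass. Desulfovibrio, a sulphate reducer, had ASV_67052 and ASV_64055 higher and ASV_8463 lower. ASV_64055 was absent from model and control and counted in 16 of 18 treated mice (at least 6.28-fold higher, adjusted p = 0.022). ASV_67052 was absent from model, but counted in 5 of 6 control and 14 of 18 treated mice, all 6 tyrosol and all 6 hydroxytyrosol mice among them and 2 of 6 salidroside mice (at least 18.2-fold higher than model, adjusted p = 0.022). ASV_8463 was counted in 5 of 6 model mice at up to 1.15%, in 4 control mice, and in 5 of 18 treated mice at up to 0.0335% (log2 fold change -5.45, adjusted p = 0.0295). As a genus Desulfovibrio had a log2 fold change of -1.99 (adjusted p = 0.145). Helicobacter, a genus of spiral bacteria of the mucus, had ASV_87123 in 14 of 18 treated mice and in no model or control mouse (at least 20.6-fold higher, adjusted p = 0.022), and ASV_27985 in 4 of 6 model mice at up to 0.301% and 3 of 18 treated mice (log2 fold change -5.72, adjusted p = 0.0245). Its genus value was -0.21 (adjusted p = 0.937), and 98.4% of its counts in treated mice lay in ASVs with 0 counts in every model mouse. ASV_64055, ASV_67052 and ASV_87123 entered the test through the treated mice alone. By ranks ASV_67052 and ASV_87123 did not pass (exact permutation, both adjusted p = 0.0691).

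Less abundant ASVs complete those that met the rule for naming. They had 0 counts in every model mouse, so they entered the test through the treated mice alone. ASV_68141, named Subdoligranulum variabile, gave 1046 of the 1075 Subdoligranulum counts of the treated mice, was counted in 16 of 18 and was absent from model and control (at least 19.7-fold higher, adjusted p = 0.0166). ASV_87645 of Oscillospira, a ruminococcal genus of slow growers, was counted in 15 of 18, in 3 of 6 salidroside mice and in all mice of the other 2 compounds (at least 14.6-fold higher, adjusted p = 0.022, or at least 8.33-fold without the highest mouse). ASV_11167 of the Ruminococcaceae and ASV_15806 of the Enterococcaceae were counted in 15 and 16 of 18 and were at least 3.12-fold and 6.12-fold higher (both adjusted p = 0.0278), the latter at least 3.87-fold without the highest mouse. In all, 7 ASVs had 3 or more counts in 15 or more treated mice and 0 in every model mouse. Of the 14 named ASVs, 7 lost their call without single model mice, with adjusted p-values up to 0.064. These were ASV_67052, ASV_87645 and ASV_87123 (without model 2 or 5), ASV_27985 (without model 4 or 5), ASV_64055 (without model 2, 3, 4 or 5), and ASV_11167 and ASV_15806 (without any of model 2 to 6). ASV_8463, ASV_27985 and ASV_11167 had enough counts for the test in 18 of the 24 fits. ASV_8463 passed in all 18 of these but in 4 of 7 other settings, and ASV_27985 in 4 of 8. By ranks neither passed (exact permutation, adjusted p = 0.182 and 0.155), nor did ASV_67052 and ASV_87123 (both adjusted p = 0.0691), and ASV_8463 passed in no single compound.

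Of the 10 genera with the largest mean shares, only Collinsella passed. The 10 were Acinetobacter, Jeotgalicoccus, Shigella, Staphylococcus, Sporosarcina, Lactobacillus, Enterococcus, Collinsella, the unclassified Enterococcaceae and Desulfovibrionaceae with no genus name. Acinetobacter, an aerobe of water and soil, held 0.166% to 84.2% in model mice (median 59.0%) and 0.0312% to 75.7% in treated mice (median 18.2%), and the groups overlapped over nearly their whole range (log2 fold change -1.44 ± 1.10 SE, adjusted p = 0.467). Its median was 60.2% with tyrosol, 27.1% with salidroside and 2.44% with hydroxytyrosol. Jeotgalicoccus, a relative of the staphylococci, held a median of 3.77% in model and 2.94% in treated mice, with a highest value of 54.9%. Its means ran the other way, at 4.32% in model and 13.8% in treated mice (log2 fold change 1.51, adjusted p = 0.503). Shigella, an enterobacterium that 16S reads hardly tell from Escherichia, had a median of 0.751% in model and 0.276% in treated mice, yet reached 70.5% in 1 hydroxytyrosol mouse, and its means were 0.904% and 7.84% (log2 fold change 2.60, adjusted p = 0.453). Sporosarcina, a spore former, reached 41.9% in model 6 and 43.1% in 1 hydroxytyrosol mouse, with medians of 0.00192% and 0.0339% and means of 6.99% and 4.15% in model and treated mice (log2 fold change -1.25, adjusted p = 0.801). Without model 6 its log2 fold change turned to 8.05. Lactobacillus had a median of 1.53% in model, 1.42% in treated and 12.6% in control mice, and means of 1.54% in model and 4.38% in treated mice (log2 fold change 1.57, adjusted p = 0.454). The mice led by a single genus were thus not led by the same one, and the standard errors of these log2 fold changes were 0.88 to 2.02. With centred log-ratios the signs of Jeotgalicoccus, Shigella, Sporosarcina and Lactobacillus turned, so their direction is not settled.

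**Figure D4:**
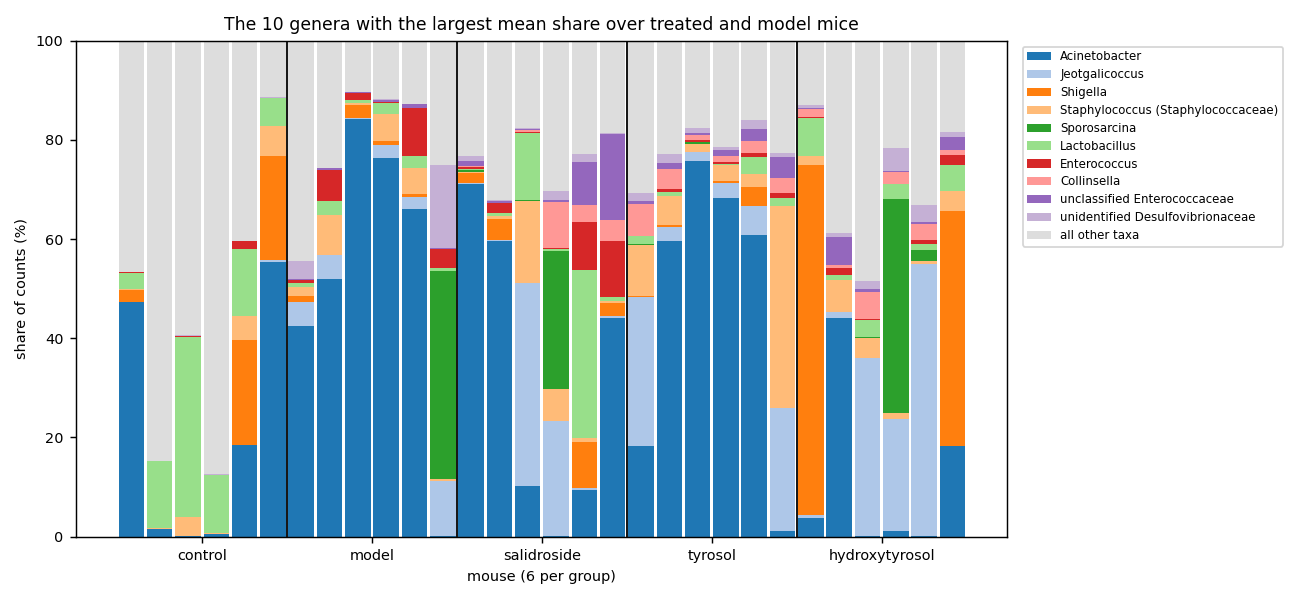
Share of counts in percent in each of the 30 mice (bars, 6 per group) for the 10 genera with the largest mean share over treated and model mice, with all other taxa in grey. Acinetobacter led in most model and tyrosol mice, while 3 of 6 salidroside and 5 of 6 hydroxytyrosol mice were led by other genera, such as the hydroxytyrosol mouse with 70.5% Shigella.

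Genera were then described by lists. Of 27 aerobes found in soil, water and on surfaces with counts, 19 were tested and 3 fell, namely Stenotrophomonas, Sphingobacterium and Ochrobactrum, the last of which was not called without model 2. Over all 112 taxa 3.57% were called lower and 58 had a negative value. In the list 16 of the 19 had a negative value, and the median log2 fold change was -1.75, against -0.04 over all 112. Scaling by library size alone moved the median over all genera by 0.26 and gave this list -1.57, TMM with singleton pairing moved it by 0.21 and gave -1.44, and centred log-ratios moved it by -0.13 and gave -2.16. The list stood at -0.65 with a filter of 50 counts (8 of 14 negative), at -1.07 without a filter (14 of 19) and at -1.19 on the rarefied table (11 of 16), where the median over all genera stood at 0.87, 0.42 and 0.58. Pseudomonas (-3.74, adjusted p = 0.0652) and Psychrobacter (-2.56, adjusted p = 0.0652) did not pass. The list summed to 43.0% to 87.1% of the counts of a model mouse (median 67.2%), 2.06% to 78.4% of a treated mouse (median 37.2%) and 4.91% to 68.2% of a control mouse (median 30.8%). By compound the median was 63.6% with tyrosol, 37.2% with salidroside and 12.4% with hydroxytyrosol, so tyrosol mice lay near the model mice. Without Acinetobacter the medians were 7.90% in model, 2.48% in treated and 15.6% in control mice. The part of this load of aerobes in the shares of the anaerobes was not tested.

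The lists of gut anaerobes held 1 called genus each. Over all 112 taxa 3.57% were called higher, 54 were positive and the median was -0.04, and nothing is read from single calls in lists of this size. Of 10 tested genera of Bacteroidales, Odoribacter rose, 9 had a positive value and the median was 0.52. Of 10 tested taxa of other Clostridiales, Christensenella rose, 7 were positive and the median was 0.83. Of 13 tested Lachnospiraceae and Ruminococcaceae, Subdoligranulum rose, 7 were positive and the median was 0.17. Of 3 tested Coriobacteriaceae, Collinsella rose and the other two were negative, at -0.40 for Adlercreutzia and -1.19 for those with no genus name. In none of the remaining lists did a taxon pass. These were the bifidobacteria and lactic acid bacteria (9 tested, median -0.05), the skin-type Gram-positive genera (8 tested, median 0.40), Helicobacter, Desulfovibrio and their neighbours in the list (4 tested, median -1.0), the Enterobacteriaceae (3 tested, median 1.45) and the mucus genera Akkermansia (0.18) and Mucispirillum (-0.78). Organelle sequences of plants and animals were nearly absent, at 0.00479% of the counts at most.

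The listed genera of Bacteroidales summed to 0.0686% to 3.70% in treated mice (median 1.41%), 0.0840% to 2.14% in model mice (median 0.421%) and 0.411% to 39.9% in control mice (median 23.5%). Against the control mice, 47 of 105 genera were called in the treated mice (44.8%), 27 higher and 20 lower. Among them were Collinsella (log2 fold change 10.95, adjusted p = 2.45e-05) and Subdoligranulum (7.33, adjusted p = 0.00017), which were higher than in control as well as in model mice. Another was Christensenella, at least 4.22-fold higher (edgeR adjusted p = 0.00644). It had no counts in control mice and was tested through the treated mice alone. Ochrobactrum was not called against control (0.30, adjusted p = 0.823), and Stenotrophomonas, Sphingobacterium and the unclassified Pseudomonadaceae had too few counts there to be tested.

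At the level of phyla, Actinobacteria held 3.53% ± 2.54 (SD, n = 18) in treated and 1.43% ± 1.12 (SD, n = 6) in model mice, a difference of 2.10 percentage points (two-sided exact permutation test, p = 0.0455, adjusted over 5 phyla p = 0.227). The unadjusted p exceeded the threshold in 13 of the 24 cases that left out a mouse, with differences of 1.74 to 2.38. Proteobacteria held 43.2% ± 32.1 against 64.9% ± 25.1 (exact permutation p = 0.142) and Firmicutes 49.8% ± 30.8 against 30.7% ± 25.0 (exact permutation p = 0.184). Bacteroidetes held 1.71% ± 1.10 in treated, 1.10% ± 0.76 in model and 21.6% ± 19.3 in control mice. No phylum passed after adjustment.

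Diversity did not differ past the threshold between treated and model mice. The Shannon index was 4.98 ± 0.79 (SD, n = 18) in treated, 5.17 ± 0.62 (SD, n = 6) in model and 6.25 ± 0.46 (SD, n = 6) in control mice, and treated minus model was -0.20 (exact permutation p = 0.589). Computed over genera in place of ASVs, the Shannon difference was positive. Observed ASVs were 701.0 ± 183 in treated and 788 ± 175 in model mice (difference -87.3, exact permutation p = 0.320). Over the 5 indices the adjusted p was 0.897 for each. Among the compounds, hydroxytyrosol mice had 586 observed ASVs on average and tyrosol mice 803, a difference of -217 (95% interval -404.5 to -27.0, exact permutation p = 0.0325), and their Chao1 index differed by -315 (95% interval -542 to -88.8, exact permutation p = 0.0195). Adjusted over the 15 comparisons of indices, both exact permutation values were at p = 0.221. Salidroside and tyrosol differed by -90.0 observed ASVs (95% interval -323 to 144).

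The communities as a whole differed close to the threshold. The split into treated and model mice had an R2 of 0.0838 in the Bray-Curtis distances over ASVs of the 24 mice (exact permutation of the distances over 134596 splits, p = 0.0489). Leaving out single mice gave an R2 of 0.0695 to 0.108 and p-values of 0.021 to 0.113, past the threshold in 8 of 24 cases. At genus level the R2 was 0.0762 (exact permutation p = 0.115), and with permutation within replicate numbers the p was 0.064. The mean distance of a treated mouse to the control mice was 0.886 ± 0.049 (SD, n = 18) and that of a model mouse 0.879 ± 0.049 (SD, n = 6), on a scale from 0 to 1 (difference 0.00652, exact permutation p = 0.808). The order of the compounds by distance to the model mice was not tested. The mean distance to the model mice was 0.636 ± 0.142 with tyrosol, 0.738 ± 0.150 with salidroside and 0.842 ± 0.094 with hydroxytyrosol (SD, n = 6), beside 0.623 ± 0.159 among the model mice themselves. Of the 3 pairs of compounds, hydroxytyrosol and tyrosol stood farthest apart (R2 0.179, exact permutation p = 0.0325, adjusted p = 0.0974). The pairs of salidroside with tyrosol and with hydroxytyrosol gave R2 of 0.0958 and 0.113 (exact permutation, both adjusted p = 0.310).

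**Figure D5:**
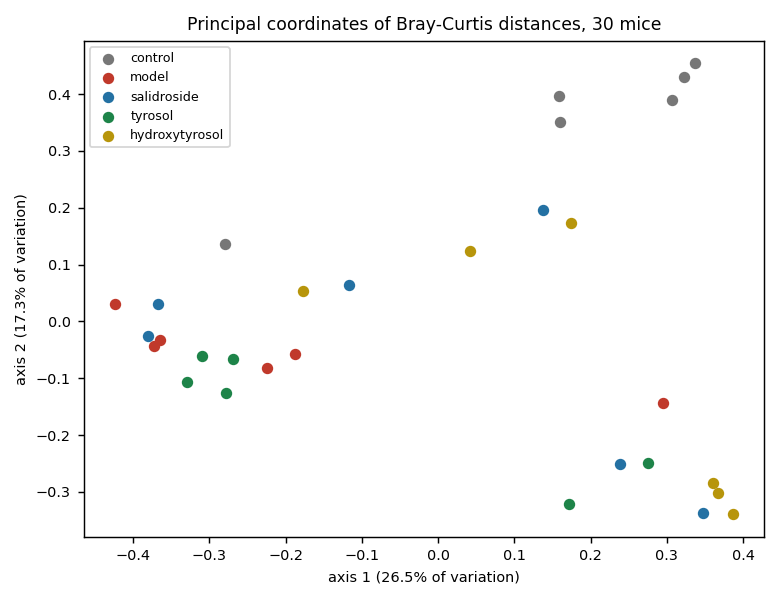
First and second principal coordinates of the Bray-Curtis distances between ASVs of all 30 mice, each point a mouse, with 26.5% and 17.3% of the variation on the axes. Treated mice were spread over the plot and did not form a cluster of their own, 4 of 6 tyrosol mice lay beside the model mice, and 5 of 6 control mice lay at the top right.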

How the data were processed

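Fresh stool of each mouse was frozen, DNA was extracted with a QIAamp stool kit and a fragment of the 16S rRNA gene was amplified and sequenced. The authors merged the reads with FLASH 1.2.11, filtered them with QIIME 1.7.0 and removed chimeras with UCHIME. Their methods name units of 97% similarity, while their read log has a denoising step and the rows are ASVs. The version of the taxonomy is not given in the sources used here. The counts as deposited are raw reads per ASV without normalization. The filtered table was the main one, and the unfiltered table and the table that the authors rarefied to 39768 counts served as alternatives and for diversity and distances. The pioglitazone group of the study is not analysed here.

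Groups came from the labels and replicate numbers from the sample titles. The numbers in the tables differ from these in the model, salidroside and hydroxytyrosol groups. Nothing states that mice were housed apart, so p-values rest on the spread between these mice, taken as independent. Mice of a group that shared a cage would not be independent, and cage could then not be told apart from compound. Counts were summed per genus, and genera and ASVs with at least 10 counts in at least 6 mice were tested with edgeR 4.0.16 (glmQLFTest after TMM, R 4.3.3) with the 18 treated mice as 1 group and, in a fit by group, for each compound and each pair. A taxon was called at a Benjamini-Hochberg adjusted p under 0.05. Fold changes are log2 of fitted means, and those against groups at 0 counts depend on the prior count, so bounds with 3 counts per mouse are given. Standard errors of log2 fold changes were derived as their absolute value over the square root of the test's F statistic. Intervals for genera between compounds are the log2 fold change plus and minus a t quantile times that error. Diversity, phylum shares and Bray-Curtis PERMANOVA were tested by exact two-sided permutation (scipy 1.17.1), with 95% intervals by inverting the test. Alternatives were DESeq2 1.42.0, centred log-ratios (0.5 added) with limma 3.58.1, other scalings, filters and tables, a replicate block, and leaving out each group or mouse. The exact rank test per taxon, and the alternatives for ASVs by compound, were added after the data had been seen. The procedures were tested on simulated data.

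Genera named are those called with a shared sign, the 10 largest, and those called in single compounds alone. ASVs named are the 12 of smallest p per direction called with a shared sign, and those with 3 or more counts in 15 or more treated mice and 0 in all model mice, or the reverse. Other taxa given with values are members of the lists, abundant ASVs of a taxon discussed, or taxa of small p between compounds. The compounds, the lists of genera and these rules were chosen with earlier results of these data known.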

Additional observations from a re-analysis of the deposited data

Results flagged for a closer look

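In 86 sets of 6 mice (5 diversity indices, 5 phyla and the 8 called genera, by group, leaving out sets without spread), 18 values lay far from the other 5 mice of their group by Dixon's ratio. Chance alone gives such a value in about 5% of sets. Many of the sets are nearly all at 0, where a few counts suffice.

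Of the genera that rose, Collinsella was at 0.00598% in model 6 and 0.00359% in control 6 with the other 5 mice at 0, Christensenella at 0.00545% in salidroside 6 with the other 5 at 0, Odoribacter at 1.5% in hydroxytyrosol 6 against 0.0848% to 0.431%, and Subdoligranulum at 0.289% in tyrosol 4 against 0.00775% to 0.111% and at 0.00135% in control 5.

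Of those that fell, Ochrobactrum was at 3.17% in model 2 against 0.00205% to 0.150%, and Sphingobacterium in the same mouse at 0.379% against 0.00996% to 0.107%. Sphingobacterium was also far off in tyrosol 2 (0.0285%) and hydroxytyrosol 2 (0.025%). The unclassified Pseudomonadaceae were at 0.273% in model 3, 0.0432% in tyrosol 4, 0.0111% in hydroxytyrosol 2 and 0.00957% in control 6, and Stenotrophomonas at 0.0239% in control 6.

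Among the wider measures, hydroxytyrosol 2 had 881 observed ASVs against 456 to 610 in the others of its group. Firmicutes held 78.2% in model 6 against 5.75% to 29.99%, and Verrucomicrobia 5.36% in model 1 against 0.00307% to 0.751%.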

How the results depend on the processing

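The 8 called genera kept their direction in all 102 values under other settings (left-out mice not counted) and passed in 83. Their number with a shared direction was 13 with DESeq2, 88 without a filter, 4 with a filter of 50 counts, 5 on the rarefied table, 4 with the replicate block, 2 without the tyrosol group, 4 by the exact rank test and 5 (without model 2) to 10 (without model 6) when a mouse was left out. ASVs numbered 80 of 773 tested with at least 10 counts in 3 mice, 21 of 276 on the rarefied table, 5 with the replicate block, 96 by the mean of the 3 compound contrasts, 19 of 277 without the tyrosol group, 15 by the exact rank test and 7 to 37 when a mouse was left out. The number of taxa tested changed with the filter, the table and the mice, also for genera, so counts are not shares of one total. The replicate numbers do not pair the mice (correlations between same-numbered mice of -0.42 to 0.44), so the block is a check and nothing more. By compound, called ASVs numbered 92, 145 and 384 for salidroside (42), tyrosol (45) and hydroxytyrosol (193) with at least 10 counts in 3 mice, 15 and 95 for salidroside and hydroxytyrosol with centred log-ratios, 19 and 119 for tyrosol and hydroxytyrosol on the rarefied table, and 7 and 23 for salidroside and tyrosol with the replicate block. They were 128 and 92 for hydroxytyrosol without the salidroside and the tyrosol group, 27 for tyrosol without the hydroxytyrosol group, and 20 to 52, 28 to 53 and 161 to 239 when a mouse was left out. For salidroside the calls among genera were 9 with DESeq2, 10 unfiltered, 1 rarefied and 2 to 6 when a mouse was left out. For tyrosol they were 6, 12 unfiltered, 4 with centred log-ratios and 2 to 5, and for hydroxytyrosol 14, 18 unfiltered, 12 with centred log-ratios, 3 with 50 counts, 2 without the tyrosol group and 3 to 12, the highest counts without model 6 and, for hydroxytyrosol, also without hydroxytyrosol 2. Between compounds they were 16 with DESeq2, 1 with centred log-ratios, 7 unfiltered and 0 whenever a mouse was left out, and against control 95 unfiltered and 39 to 52. At genus level the Shannon index reversed to 0.37 and Pielou's evenness to 0.0653. Leaving out a mouse gave Simpson differences of -0.0079 to 0.0174, Pielou -0.0268 to 0.00236, Verrucomicrobia -0.0822 to 0.988, Proteobacteria -30.9 to -16.3, Actinobacteria 1.74 to 2.38, and distance to control -0.0154 to 0.026. For Actinobacteria the unadjusted p rose over 0.05 on the rarefied table (2.07), without Acinetobacter in the total (1.18), by mean ranks (6.44) and in 13 of the 24 cases with a mouse left out. By exact permutation the R2 was 0.0762 at genus level (p = 0.115), 0.0838 within replicate blocks (p = 0.064) and 0.0695 to 0.108 when a mouse was left out. Among genera that were not called, signs turned with centred log-ratios for Jeotgalicoccus (-0.14), Shigella (-0.084), Staphylococcus (-0.15), Sporosarcina (1.52), Lactobacillus (-0.17) and unidentified Desulfovibrionaceae (0.94). They turned with the replicate block for Shigella (-1.34), Staphylococcus (-0.35) and Sporosarcina (5.00), without salidroside for Staphylococcus (-0.00032) and Lactobacillus (-0.038), without tyrosol for Staphylococcus (-0.064), and without model 6 for Sporosarcina (-2.55 to 8.05 over left-out mice) and unidentified Desulfovibrionaceae (-2.35 to 1.37). The causes were not tested. Shares under about 0.003% lie at the limit of the depth.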

Other observations

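Part of the community of treated mice lay in sequences that model mice lacked. For each mouse the share of counts in ASVs with 0 counts in 5 model mice was taken, the other 5 for a model mouse and the mean over the 6 choices of 5 for the rest. It was 4.33% to 29.9% in the treated mice (median 11.3%), 1.2% to 46.2% in the model mice (median 3.67%) and 5.15% to 46.6% in the control mice (median 31.3%). By compound the medians were 14.6% with salidroside, 6.90% with tyrosol and 13.4% with hydroxytyrosol. These ranges overlap, and the differences were not tested.

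Outside the called genera, the smallest p-values between compounds belonged to a few taxa. The unclassified Enterobacteriaceae, facultative anaerobes, had a median share of 3.23% with salidroside (0.0769% to 16.4%), 0.0754% with tyrosol (0.00794% to 0.244%) and 0.0887% with hydroxytyrosol (0% to 0.268%). The log2 difference was 6.18 ± 1.68 (SE) for salidroside minus tyrosol and 5.73 ± 1.65 (SE) for salidroside minus hydroxytyrosol. Atopostipes differed by 8.41 ± 2.41 (SE) for hydroxytyrosol minus tyrosol and by -7.59 ± 2.33 (SE) for salidroside minus hydroxytyrosol. Sequences named no further than Bacteria differed by -3.27 ± 0.96 (SE) for hydroxytyrosol minus tyrosol, and Alistipes, of the Bacteroidales, by 4.65 ± 1.41 (SE) for salidroside minus tyrosol. In edgeR each of these had an adjusted p of 0.141 over all 336 tests, so none passed, and these taxa were named after their values were seen.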
